A study of Homo sapiens with 6 samples.

Results

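The genes described here are the 3 D cyclins CCND1, CCND2 and CCND3, their catalytic partners CDK4 and CDK6, the CDK inhibitors CDKN2C, CDKN2D, CDKN1B and CDKN1C, and RB1, the pocket protein that the cyclin D kinases phosphorylate. They were chosen by symbol for their place in 1 pathway, 10 genes of the 58440 identifiers in the count table, and all 10 were among the 18380 genes that passed the filter on low counts. They were followed in K562, an established human chronic myeloid leukaemia line that carries the BCR-ABL1 fusion. RNA was sequenced from 3 libraries of K562 cells over-expressing IRAIN, a long noncoding RNA from the IGF1R locus, and from 3 control libraries of K562 cells. These controls are wild type in the GEO labels and vector in the count table, and the sources do not say which holds. The sources used here do not say how IRAIN was delivered, whether the over-expressing cells are 1 clone or a pool, or how long they had been grown. Nor is it stated whether each library came from its own culture. The p-values therefore reflect the spread between these libraries alone, and that spread may be technical.

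D cyclins are made in response to mitogens and survival signals, bind CDK4 or CDK6, and direct the kinase to RB1 and its relatives. Unphosphorylated RB1 holds E2F transcription factors in check, and its phosphorylation lets the genes of S phase be transcribed. Inhibitors of the INK4 class, to which CDKN2C and CDKN2D belong, bind CDK4 and CDK6 alone, whereas those of the CIP/KIP class, such as CDKN1B and CDKN1C, act mainly on CDK2 complexes. In blood cells CCND2, CCND3 and CDK6 are known as the main forms. K562 is known to have lost the CDKN2A and CDKN2B locus.

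IRAIN had 97, 94 and 106 counts in the IRAIN over-expression libraries, against 0, 0 and 1 in the control libraries, so the labels and the counts go together. Library totals in genes ran from 11558983 to 13303139 counts, and pairs of libraries within a group differed by more than sampling noise (chi-square per degree of freedom 1.36 to 2.31). All 7 K562 markers were present, with GATA1, the erythroid master regulator, at 194 CPM in the IRAIN over-expression libraries and 204 CPM in the control libraries. Among them, TAL1 rose and TFRC fell. CPM is the usual depth-scaled count, here with library sizes scaled by the trimmed mean of M-values (TMM). Of 8 markers of other cell types, none was at 0 in all libraries and 5 passed the filter. Their summed counts ranged from 1362 to 1606 in the IRAIN over-expression libraries and from 1219 to 1297 in the control libraries, most of them from EPCAM and KRT19, while CD3E and CD79A had between 0 and 6 counts in each library. KRT19 and COL1A1 rose and CD3D fell, the last not by DESeq2 (adjusted p = 0.13), and the part of such markers in the results below was not tested.

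Across the pathway, the level of CCND1 fell steeply, CDK4 and CDK6 fell slightly and RB1 rose modestly with IRAIN over-expression. The other 6 members, CCND2, CCND3 and the 4 inhibitors, did not pass the test. So 4 of 10 members passed edgeR's quasi-likelihood test at the 0.05 level after adjustment, beside 39.3% of all genes tested. Of these, 1 was higher, beside 20.3% of all genes, and 3 were lower, beside 18.9%. The groups did not overlap for 5 of 10 members, beside 47.5% of all genes. They were higher in 2, beside 24.3% of all genes, and lower in 3, beside 23.2%. The share of members called is therefore close to the background of this comparison, and the members' median absolute log2 fold change (0.12) was smaller than that of all genes tested (0.20). The exception in size was CCND1: only 0.745% of all genes tested had a larger absolute log2 fold change, and it ranked 69 by size of fall among the 3483 genes called lower.

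**Figure D1:**
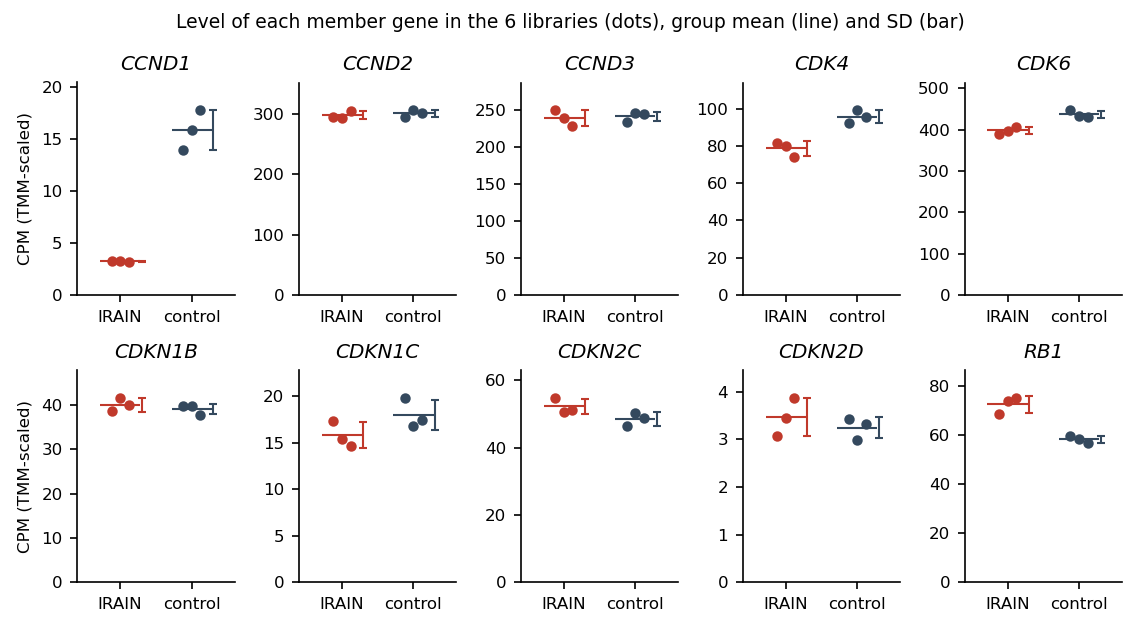
Level of each of the 10 members in CPM (vertical axis, from 0) in the 3 IRAIN over-expression libraries (red, left) and the 3 control libraries (dark, right), with dots for libraries, a line for the group mean and a bar for the SD. CCND1 lies near 3.25 CPM in the IRAIN over-expression libraries and between 13.9 and 17.7 CPM in the control libraries, while CCND2, CCND3, CDKN1B, CDKN1C and CDKN2D overlap between groups.

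The pair of kinase genes CDK4 and CDK6 moved the same way, so the sequence before their starts is shown first. For CCND1, CCND2 and CDKN1C the promoter table used had no entry, so no sequence was read for them. Each line gives the 250 bases before a transcript start in the RefSeq promoter table (GRCh38.p14), read on the gene's minus strand. CDK4 lies at chr12:57752311-57752560 and CDK6 at chr7:92836574-92836823. Capitals mark E boxes (CACGTG, the site read by MYC with MAX and by related factors) and GC boxes (GGGCGG or its reverse complement, the site of SP factors).
CDK4: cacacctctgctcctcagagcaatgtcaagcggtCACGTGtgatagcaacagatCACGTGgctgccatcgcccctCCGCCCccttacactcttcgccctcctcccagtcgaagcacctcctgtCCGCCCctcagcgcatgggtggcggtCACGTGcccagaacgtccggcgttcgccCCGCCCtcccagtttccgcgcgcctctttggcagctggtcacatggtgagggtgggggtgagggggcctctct
CDK6: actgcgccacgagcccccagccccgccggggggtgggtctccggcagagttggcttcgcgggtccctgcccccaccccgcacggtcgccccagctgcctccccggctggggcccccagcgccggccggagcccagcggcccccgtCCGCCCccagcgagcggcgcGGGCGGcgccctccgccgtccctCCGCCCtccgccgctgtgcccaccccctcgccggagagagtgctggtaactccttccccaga

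The CDK4 window held 3 E boxes, whose first bases lie 216, 196 and 101 bases before the start, and 3 GC boxes. The CDK6 window held no E box and 3 GC boxes. Searched on both strands, at least 1 E box stood in 6.49% of 27305 promoter windows of this length and at least 3 in 0.0879%. At least 1 GC box stood in 42.3% of the windows, and 3 or more in 13.99%. Among the 5 other members in the table, CDKN2C held 1 E box and the others none. The entry for RB1 is a start 172724 bases inside the gene. Neither kinase window held the E2F letters TTTCCCGC or TTTGGCGC, which were present in 1.96% of windows, and neither held TATAAA, present in 11.1%. The motifs searched do not overlap each other in these windows. Such matches are letters only, and no binding was measured. The CDK4 start used here lies 3703 bases inside the gene as GENCODE annotates it, which also lists CDK4 transcripts that begin within the window.

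CCND1 (ENSG00000110092.3, GRCh38 chromosome 11, 69641087 to 69654474, plus strand) encodes cyclin D1, the D cyclin best known as a target of mitogen signalling. It had 37, 42 and 42 counts in the IRAIN over-expression libraries, against 167, 195 and 214 in the control libraries. In CPM these were 3.25, 3.30 and 3.19 with IRAIN over-expression and 13.9, 15.8 and 17.7 in the control libraries. The over-expression libraries lay close together and far below every control, and the controls spread more widely. The fit gave a log2 fold change of -2.28 ± 0.14 (SE), with an edgeR adjusted p of 1.8e-21 and all 3 over-expression libraries below all 3 controls. The level was thus 4.86-fold lower with IRAIN over-expression, with a 95% interval of 4.0 to 5.9-fold. In bulk RNA, fewer cells with the transcript and less of it per cell cannot be told apart. When edgeR tested for changes beyond 1.5-fold, CCND1 was the sole member that passed (adjusted p = 3.3e-16). At its 3′ end it overlaps LTO1, a gene on the other strand, by 1399 bases. LTO1 stood at -0.20 ± 0.087 (log2 fold change, SE) and did not pass the test, though it did without over-expression replicate 2 (edgeR adjusted p = 0.022). In the 1 library with strand counts, 15 reads lay on the other strand of CCND1 and 42 on its own.

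CCND2 (chromosome 12, 4273772 to 4305350, plus strand) encodes cyclin D2. It stood at 294, 294 and 305 CPM in the IRAIN over-expression libraries and at 295, 306 and 302 CPM in the control libraries. The groups overlapped and the log2 fold change was -0.02 ± 0.03 (SE), with an edgeR adjusted p of 0.73. The 95% interval of the difference ran from -5.07% to 3.14%. CCND3 (chromosome 6, 41934933 to 42050357, minus strand) encodes cyclin D3, the form known for its part in the last divisions of red cell precursors. It had 249, 238 and 228 CPM with IRAIN over-expression, against 234, 246 and 244 CPM in the control libraries. The ranges overlapped here too, and the log2 fold change was -0.02 ± 0.033 (SE), with an edgeR adjusted p of 0.72 and an interval of the difference from -5.57% to 3.4%. Its sign turned when over-expression replicate 3 was left out (0.02).

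CCND1 made up a minor part of the D cyclin RNA in both groups, and protein was not measured. Levels of different genes were compared as CPM per kb of annotated exon. On that scale CCND1 made up 0.794%, 0.825% and 0.801% of the summed D cyclin level in the IRAIN over-expression libraries, against 3.42%, 3.70% and 4.18% in the control libraries. CCND2 made up 49.9% ± 1.6 in the IRAIN over-expression libraries and 48.4% ± 0.41 in the control libraries, and CCND3 49.3% ± 1.6 and 47.8% ± 0.057 in the same order (SD, n = 3 each). The summed level of the 3 genes was 83.4 ± 1.2 CPM per kb with IRAIN over-expression and 86.9 ± 2.2 in the control libraries (SD, n = 3 each), and the ranges of the groups overlapped. The split between CCND2 and CCND3 depends on the length used. With the longest transcript of each gene in place of all exons, CCND3 took 68.1% in the IRAIN over-expression libraries and 66.8% in the control libraries, because its 23 annotated transcripts cover 5802 bases of exon while the longest has 2394. CCND1 then took 0.516% and 2.43%.

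Whether CCND1 moved differently from the other D cyclins was tested on their ratio within each library. The ratio of CCND1 to CCND2, per kb, was 0.0164, 0.0167 and 0.0155 in the IRAIN over-expression libraries and 0.0701, 0.0765 and 0.0871 in the control libraries. The difference in mean log2 ratio was -2.26, and the exact two-sided permutation test gave p = 0.1, the smallest value that 3 against 3 libraries allow. Against CCND3 the difference was also -2.26, with the same exact permutation p of 0.1. After adjustment over the 3 ratios computed, CDK4 to CDK6 included, both values were 0.15. As 3 against 3 libraries cannot give a p below 0.1, this permutation test could not have passed and decides nothing. The 95% intervals of the log2 fold changes from edgeR's fit lay apart. They ran from -2.56 to -2.00 for CCND1, -0.075 to 0.045 for CCND2 and -0.083 to 0.048 for CCND3.

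CDK4 (chromosome 12, 57747727 to 57756013, minus strand) encodes one of the D cyclin kinases. It stood at 81.6, 80.2 and 74.3 CPM in the IRAIN over-expression libraries, against 92.3, 99.2 and 95.8 CPM in the control libraries. Every over-expression library lay below every control. The log2 fold change was -0.28 ± 0.045 (SE), with an edgeR adjusted p of 3.2e-07, which is a difference of -17.9% with a 95% interval from -22.9% to -12.6%. CDK4 shares 2485 bases at its 3′ end with TSPAN31 and 916 bases at its 5′ end with MARCHF9, both on the plus strand. In the library with strand counts it had 1020 counts without strand and 1391 on its own strand. The counts without strand, used for all levels here, thus miss part of the reads of CDK4. TSPAN31 stood at 0.06 ± 0.094 (log2 fold change, SE) and did not pass the test. In the library with strand counts, 606 of its reads lay on the other strand, that of CDK4, and 309 on its own. Its fold change, from counts without strand, need therefore not be that of TSPAN31 alone. MARCHF9 rose by 0.24 ± 0.087 (log2 fold change, SE), a call that DESeq2 did not make (adjusted p = 0.10).

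CDK6 (chromosome 7, 92604921 to 92836594, minus strand) encodes the other D cyclin kinase, the one that predominates in blood cell precursors. It had 391, 398 and 407 CPM with IRAIN over-expression and 447, 434 and 431 CPM in the control libraries. The groups did not overlap, but they lay close. The log2 fold change was -0.13 ± 0.028 (SE), with an edgeR adjusted p of 8.0e-05, which is a difference of -8.82% with an interval from -12.3% to -5.2%. For the ratio of CDK4 to CDK6, the difference in mean log2 ratio was -0.15, with an exact permutation p of 0.2 (two-sided, 0.2 after adjustment over the 3 ratios). As 3 against 3 libraries cannot give a p below 0.1, this test could not have passed and leaves it undecided whether CDK4 fell more than CDK6. The CDK4 to CDK6 ratio per kb was 0.808, 0.780 and 0.706 in the IRAIN over-expression libraries and 0.798, 0.885 and 0.860 in the control libraries, and these ranges overlap. Neither kinase gene passed the test against a 1.5-fold change.

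RB1 (chromosome 13, 48303726 to 48599436, plus strand) was the member that rose. It stood at 68.8, 74.0 and 75.3 CPM in the IRAIN over-expression libraries, against 59.9, 58.3 and 56.8 CPM in the control libraries. All over-expression libraries were above all controls. The log2 fold change was 0.32 ± 0.05 (SE), with an edgeR adjusted p of 2.4e-07, which is a difference of 24.9% with a 95% interval from 16.5% to 33.8%, and RB1 did not pass the test against a 1.5-fold change. Of its strand-assigned reads in the library with strand counts, 4.46% lay on the other strand. LPAR6, a receptor gene on the minus strand within RB1, stood at 0.06 ± 0.18 (log2 fold change, SE) and did not pass. In the library with strand counts, however, 51 of its reads lay on the other strand, that of RB1, and 1 on its own. Its fold change therefore says little about LPAR6 itself.

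**Figure D2:**
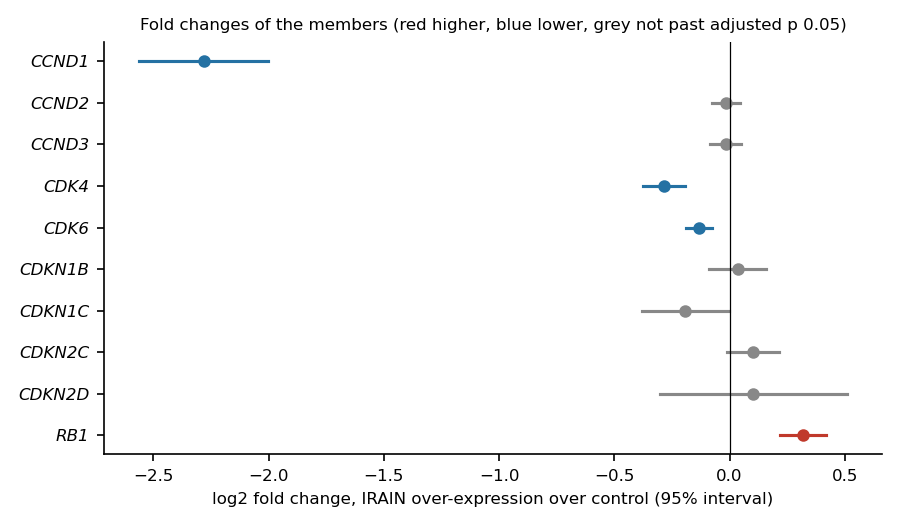
Log2 fold change (horizontal axis) of each member, IRAIN over-expression over control, from edgeR's fit, with the 95% interval as a line. CCND1 stands at -2.28, far from the rest, CDK4 (-0.28) and CDK6 (-0.13) are lower, RB1 (0.32) is higher, and the other 6 members are in grey since they did not pass an adjusted p of 0.05.

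Among the INK4 inhibitors, CDKN2C (chromosome 1, 50960745 to 50974633, plus strand) had 54.8, 50.7 and 51.2 CPM in the IRAIN over-expression libraries and 46.4, 50.4 and 48.9 CPM in the control libraries. The groups did not overlap, by a narrow gap, yet the log2 fold change of 0.10 ± 0.056 (SE) did not pass (edgeR adjusted p = 0.14). The interval of the difference ran from -0.63% to 16.0%. CDKN2D (chromosome 19, 10566462 to 10569059, minus strand) was the least abundant inhibitor, with 35, 44 and 51 counts in the IRAIN over-expression libraries and 41, 37 and 40 in the control libraries. Its log2 fold change was 0.10 ± 0.2 (SE), with an edgeR adjusted p of 0.73, and at this depth the interval reaches from -18.8% to 42.2%. CDKN2A and CDKN2B, the INK4 genes that K562 is known to lack, had 0 counts in all 6 libraries. A count of 0 allows up to 0.0793 CPM over the 3 over-expression libraries and 0.0831 CPM over the 3 controls, for counting error only.

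Among the CIP/KIP inhibitors, CDKN1B (chromosome 12, 12715058 to 12722371, plus strand) had 38.5, 41.6 and 39.8 CPM with IRAIN over-expression, against 39.8, 39.7 and 37.6 CPM in the control libraries. The groups overlapped. The log2 fold change was 0.04 ± 0.062 (SE), with an edgeR adjusted p of 0.70 and an interval from -5.96% to 11.6%. CDKN1C (chromosome 11, 2883213 to 2885773, minus strand), an imprinted gene, had 17.4, 15.4 and 14.7 CPM in the IRAIN over-expression libraries and 19.9, 16.8 and 17.5 CPM in the control libraries. One over-expression library reached into the control range, and the log2 fold change of -0.19 ± 0.094 (SE) had an unadjusted p of 0.0453 and an edgeR adjusted p of 0.10. It passed only when over-expression replicate 1 was left out (edgeR adjusted p = 0.048, against 0.064 to 0.41 without each of the other libraries).

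CDKN1A, the CIP/KIP inhibitor best known as a target of p53, which K562 lacks in functional form, had 60.1, 56.7 and 55.0 CPM in the IRAIN over-expression libraries, against 23.1, 23.8 and 21.6 CPM in the control libraries. It rose by 1.32 ± 0.065 on the log2 scale (SE), with an edgeR adjusted p of 5.0e-26 and no overlap of the groups. CDKN3, a phosphatase that acts on CDKs despite its name, stood at 0.08 ± 0.08 (log2 fold change, SE) and did not pass (edgeR adjusted p = 0.43).

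Ordered by CPM per kb in the control libraries, CCND2 came first at 42.0 ± 0.81, with CCND3 at 41.6 ± 1.1 within its spread, then CDK6 at 35.7 ± 0.71 and CDK4 at 30.2 ± 1.1 (SD, n = 3). CDKN2C at 14.6 ± 0.61 and CDKN1B at 13.9 ± 0.43 did not differ beyond their spread in the control libraries, and RB1 followed at 9.04 ± 0.24 (SD, n = 3). CDKN1C at 7.28 ± 0.65, CCND1 at 3.28 ± 0.39 and CDKN2D at 2.16 ± 0.15 were the lowest (SD, n = 3). All 4 inhibitors thus stood below both kinases. On the same scale, the order in the over-expression libraries differed only at its end, where CCND1 at 0.673 ± 0.011 fell below CDKN2D at 2.31 ± 0.27 (SD, n = 3). Part of this order rests on the counts and the length used. In the library with strand counts, CDK4 had 1020 counts without strand and 1391 on its own strand, and CDK6 had 5061 and 4813. Counts without strand thus place CDK4 lower beside CDK6 than own-strand counts would, and the order of these kinases is not settled here. Per kb of the longest transcript, CCND3 led with 99.6 ± 4.5 in over-expression libraries and 101 ± 2.7 in controls, and CDK4 stood above CDK6 (SD, n = 3 each). CDK4 then had 37.9 ± 1.9 in over-expression libraries and 46.1 ± 1.7 in controls, and CDK6 had 34.3 ± 0.72 in over-expression libraries and 37.7 ± 0.75 in controls (SD, n = 3 each). CCND1 was last with over-expression and last but for CDKN2D in controls by either length.

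**Figure D3:**
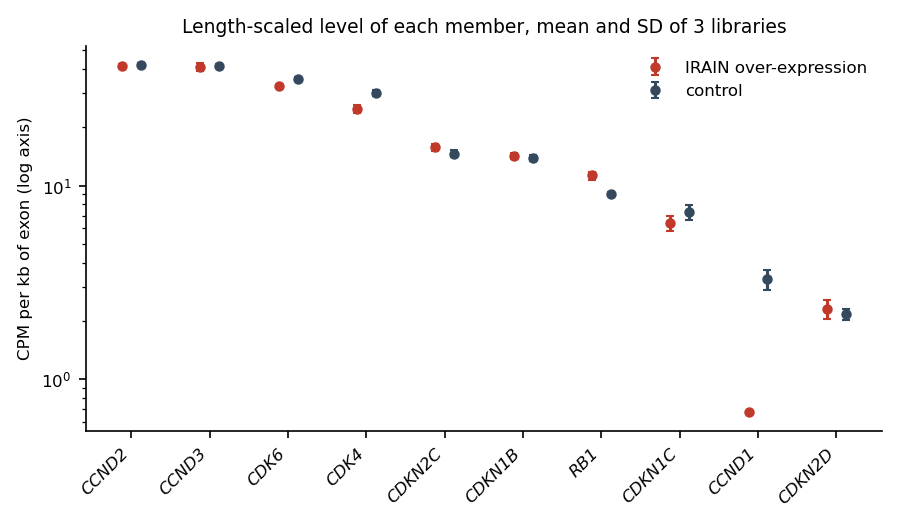
Level of each member in CPM per kb of annotated exon (vertical log axis), ordered by the control mean, with the mean and SD of 3 libraries for IRAIN over-expression (red, left) and control (dark, right). On this length CCND2, CCND3 and CDK6 lead in both groups, an order that turns for CCND2 with CCND3 and for CDK6 with CDK4 per kb of the longest transcript, and CCND1 holds the last place with IRAIN over-expression and stands above CDKN2D in the control libraries. The counts without strand used here miss part of the reads of CDK4.

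The proteins that surround the members were described by lists chosen for their place in the pathway, each beside a median log2 fold change of -0.00103 over all genes tested, of which 20.3% were called higher and 18.9% lower. Of 18 partners at the G1/S step, 17 were tested, 5 rose (beside 20.3% of all genes) and 6 fell (beside 18.9%), with a median of 0.00. CCNA1, a germ cell cyclin, was the one not tested and had 0 counts in all 6 libraries. TFDP2, a dimerization partner of E2F proteins, rose by 0.32 ± 0.036, the repressor E2F7 by 0.32 ± 0.056 and the activator E2F2 by 0.23 ± 0.052 (log2 fold changes, SE). TFDP1, the main dimerization partner, fell by 0.15 ± 0.039, E2F4, which represses with pocket proteins in resting cells, fell by 0.19 ± 0.045, and CCNE1, the cyclin that activates CDK2, fell by 0.28 ± 0.079 (log2 fold changes, SE). So E2F family members and their partners went both ways.

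Of 28 genes known as E2F targets, all were tested, and 5 rose and 12 fell, with a median of -0.01. UHRF1, which maintains DNA methylation at replication, had 87.6, 86.8 and 78.8 CPM in the IRAIN over-expression libraries, against 130 CPM, 126 CPM and 132 CPM in the control libraries. It fell by 0.61 ± 0.042 on the log2 scale, the most of the list, with no overlap between groups. RRM2, a subunit of ribonucleotide reductase, fell by 0.45 ± 0.048 and the helicase subunit MCM4 fell by 0.28 ± 0.027, whereas the loading factor CDC6 rose by 0.15 ± 0.041 and E2F1 by 0.19 ± 0.059 (log2 fold changes, SE). CCNE1, E2F1, E2F2 and several others stand in both this list and the one before. Falls were thus more frequent in this list (12 of 28) than among all genes (18.9%), and rises (5 of 28) lay near the 20.3% of all genes. The 12 falls ran from -0.15 to -0.61 and the 5 rises from 0.08 to 0.23 (log2 fold changes). The median near 0 reflects the genes not called as well, and the list as a set was not tested.

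Of 21 genes for assembly, activation and turnover of these complexes, 5 rose (beside 20.3% of all genes) and 5 fell (beside 18.9%), with a median of 0.04, so the counts lie near the background. SKP2, the ubiquitin ligase subunit that marks CDKN1B for destruction, had 103, 107 and 105 CPM in the IRAIN over-expression libraries and 133, 127 and 132 CPM in the control libraries. It fell by 0.32 ± 0.039, the cullin scaffold CUL1 fell by 0.30 ± 0.039 and CAND1, which exchanges the substrate receptors of such ligases, fell by 0.13 ± 0.031 (log2 fold changes, SE). FBXO31, a receptor known to direct cyclin D1 to the proteasome after DNA damage, rose by 0.21 ± 0.054, FBXW8 by 0.42 ± 0.071 and UBAC1, part of another ligase for CDKN1B, by 0.20 ± 0.028 (log2 fold changes, SE).

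Of 11 genes of complexes that repress with RB1 and its relatives, 1 rose and 3 fell, 4 of 11 beside 39.3% of all genes called in either direction, with a median of -0.07. RBBP7, a histone-binding protein, fell by 0.20 ± 0.034 and DYRK1A, the kinase that assembles the DREAM complex, fell by 0.20 ± 0.035 (log2 fold changes, SE). LIN52, the subunit that DYRK1A phosphorylates, fell by 0.32 ± 0.11 and MYBL1 rose by 0.57 ± 0.22 (log2 fold changes, SE). Both of these were lost by DESeq2, with adjusted p = 0.094 for LIN52 and 0.13 for MYBL1, and without single libraries. LIN52 gave an edgeR adjusted p of 0.0095 to 0.11 over the 6 fits that leave out 1 library, and MYBL1 0.032 to 0.11. Of 32 other cyclins and CDKs, 28 were tested, 6 rose (beside 20.3% of all genes) and 6 fell (beside 18.9%), again near the background, with a median of 0.05. The mitotic cyclin CCNB1 fell by 0.31 ± 0.035, CCNF by 0.25 ± 0.039 and CDK10 by 0.24 ± 0.051, whereas CCNY rose by 0.27 ± 0.043, CDK13 by 0.22 ± 0.038 and CCNI by 0.19 ± 0.03 (log2 fold changes, SE). CDK14, a partner of CCNY named after its values were seen, had 15, 17 and 20 counts in the IRAIN over-expression libraries, against 4, 4 and 4 in the control libraries. It rose by 2.05 ± 0.43 on the log2 scale (SE), the largest change of the 5 lists, at low depth.

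**Figure D4:**
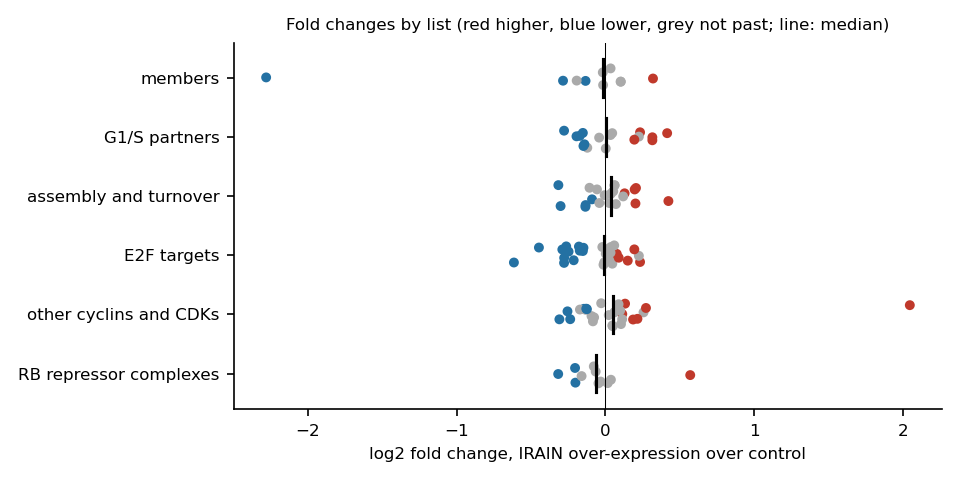
Log2 fold change, IRAIN over-expression over control (horizontal axis), of the members and of the 5 lists around them, with a dot for each tested gene (red where called higher, blue where lower, grey otherwise) and a line at each list's median. All medians lie between -0.07 and 0.05, CCND1 at -2.28 stands apart on the left of the members, and CDK14 at 2.05 stands apart on the right of the other cyclins and CDKs.

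The surroundings of the members on the chromosomes were read from the tested genes that start within 500 kb, and their counts stand beside the 20.3% of all genes called higher and 18.9% called lower. Around CCND1, 3 genes were tested, and all 3 lay above it. MYEOV, at a distance of 347 kb, fell by 0.51 ± 0.056 on the log2 scale (SE), with an edgeR adjusted p of 1.2e-11, and the other two did not pass. CDK6 had 9 tested neighbours, and all 9 lay above it. Of these, 3 rose and 0 fell by edgeR, with 0 falls also at an unadjusted p under 0.05, by DESeq2 and by limma-voom. RB1 had 7, of which 1 rose: ITM2B, at a distance of 71.1 kb, rose by 0.38 ± 0.062 (log2 fold change, SE). Around CDK4, 29 genes were tested, of which edgeR called 11 higher (beside 20.3% of all genes) and 4 lower (beside 18.9%), and DESeq2 10 higher and 1 lower. The one lower by both was ATP23, at 150 kb, which fell by 0.37 ± 0.095 on the log2 scale (SE). MYEOV, ITM2B and ATP23 were named after their values were seen.

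**Figure D5:**
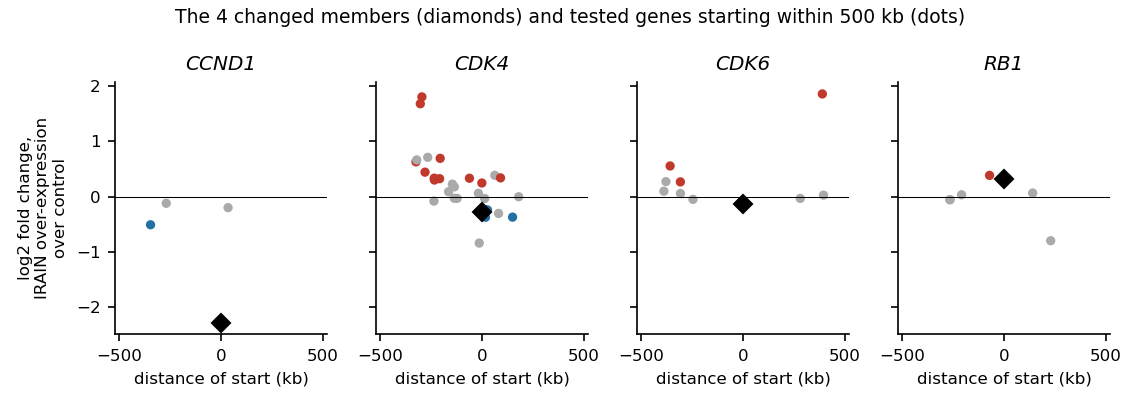
Log2 fold change, IRAIN over-expression over control (vertical axis), of the 4 changed members (diamonds) and of the tested genes around them (dots, red where called higher, blue where lower, grey otherwise), against the distance between starts in kb (horizontal axis, positive toward higher coordinates). CCND1 at -2.28 lies below its 3 neighbours, and CDK6 at -0.13 lies below its 9.

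CDKN1C, which did not pass, lies in an imprinted cluster. Of its 13 tested neighbours 7 fell by edgeR, beside 18.9% of all genes, and 6 by DESeq2, with a median of -0.38. No neighbour rose by edgeR (0 calls), 1 did at an unadjusted p under 0.05, 0 by DESeq2 and 1 by limma-voom. PHLDA2, imprinted with the same parental origin and named after its values were seen, fell by 0.68 ± 0.17 (log2 fold change, SE). These neighbours were taken by distance alone and not by imprinting, and not all of them fell. SLC22A18, the nearest neighbour at 13.9 kb, stood at -0.10 ± 0.12 and the antisense RNA KCNQ1OT1 at 0.07 ± 0.028 (log2 fold changes, SE). Neither passed by edgeR. KCNQ1OT1, with an edgeR adjusted p of 0.057, was the neighbour that rose at an unadjusted p under 0.05. SLC22A18 and KCNQ1OT1 were also named after their values were seen. The remaining members CCND2, CCND3, CDKN1B, CDKN2C and CDKN2D had 6, 12, 14, 10 and 31 tested neighbours, with medians between -0.05 and 0.13.

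The genes whose profile over the 6 libraries was most like that of CCND1 were sought among 12002 tested genes with at least 5 CPM in the higher group. Likeness was the Euclidean distance between log2 profiles centred on the control mean, so it mostly follows the size of the group difference. CDH4, a cadherin, was nearest at 0.263, followed by the adaptor FYB1 at 0.345, the keratin KRT10 at 0.418, the desmosomal cadherin DSG3 at 0.446 and the collagen COL14A1 at 0.471. All 5 lie on chromosomes other than 11. CDH4 stood at 15.3 ± 0.40 CPM in the IRAIN over-expression libraries and at 73.6 ± 2.4 CPM in the control libraries (SD, n = 3 each), with a log2 fold change of -2.27 ± 0.066 (SE).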

How the data were processed

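RNA was isolated with a QIAGEN AllPrep kit and sequenced from TruSeq libraries, per the labels' protocols. STAR and hg38 (GRCh38) are named in the submitters' processing notes, without versions. The authors deposited raw counts per gene for 6 libraries, without normalization. A second deposited table holds counts of 1 library by strand, with no sample name. Ignoring strand, it has the same value as over-expression replicate 2 at each of the 58440 identifiers, and 15.1% of its strand-assigned counts lie on the minor strand. Control columns carry numbers that could not be tied to single labelled samples, so they carry the control group only.

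Identifiers were matched without version to GENCODE release 29 (58275 of 58440) and to a table of names (57754). All genes were fitted in R 4.3.3 with edgeR 4.0.16 (quasi-likelihood F-test, two-sided, TMM factors, default filterByExpr filter, no covariate), and p-values were adjusted by Benjamini-Hochberg with a threshold of 0.05. SEs are the log2 fold change over the square root of F. CPM per kb divides CPM by the union of annotated exons. The step was tested on simulated data. Alternatives were DESeq2 1.42.0, limma-voom (limma 3.58.1), RLE and upper-quartile factors, 2 other filters, a test against a 1.5-fold change, leaving out each library and a replicate block by column number. The members and lists were chosen with earlier results of these data known, so the lists get counts and medians and no test. Named besides the members were the inhibitors CDKN1A, CDKN2A, CDKN2B and CDKN3, and in each list up to 3 genes called higher and 3 called lower with the smallest p. Neighbours are tested genes starting within 500 kb, and the 5 genes most like CCND1 used log2(CPM + 0.1). Genes named beyond this rule are marked in the text, and 1 marker is not reported here. Floors for a count of 0 cover counting error only, since the counts are of reads and the sources name no molecular identifiers.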

Additional observations from a re-analysis of the deposited data

How the results depend on the processing

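Direction and side of the threshold of all 10 members were the same under RLE and upper-quartile factors, both other filters, DESeq2 and limma-voom. Against a 1.5-fold change, edgeR called 447 genes higher and 242 lower, and CDK4 (-0.28), CDK6 (-0.13) and RB1 (0.32) no longer passed (adjusted p = 1 each). Leaving out each library in turn gave 3291 to 3550 genes called higher and 3043 to 3210 lower. The log2 fold change then ranged from -2.37 to -2.19 for CCND1, -0.31 to -0.24 for CDK4, -0.15 to -0.12 for CDK6 and 0.30 to 0.36 for RB1, all past the threshold. Members that did not pass ranged from -0.03 to -0.00 (CCND2), -0.046 to 0.017 (CCND3, whose sign turned without over-expression replicate 3), 0.01 to 0.06 (CDKN1B), -0.26 to -0.12 (CDKN1C, which passed without over-expression replicate 1), 0.07 to 0.13 (CDKN2C) and 0.02 to 0.18 (CDKN2D). With the longest transcript as length, the share of the summed D cyclin level was 0.516% for CCND1, 31.4% for CCND2 and 68.1% for CCND3 with IRAIN over-expression, against 2.43%, 30.8% and 66.8% in the control libraries, a difference set by the lengths. LPAR6 ranged from -0.17 (without over-expression replicate 3) to 0.17, with -0.01 without control replicate 2. Of 38 genes of the lists and markers, 34 lost their call against a 1.5-fold change. A replicate block by the number in the column names, added after seeing the data, called 3661 genes higher and 3416 lower. It changed no call among the members (CCND1 -2.29, CDK4 -0.28, CDK6 -0.13, RB1 0.32). Nor did it among 38 genes of the lists and markers or 13 neighbours and genes like CCND1. SLC22A18 and KCNQ1OT1 were not checked in this way. The control numbers are not tied to the labels, and same-numbered columns did not deviate together (correlations of deviations from the group means -0.042, -0.0057 and -0.013, and no over-expression library correlated best with its own number). Depth limits CCND1 and CDKN2D most, at 35 to 51 counts per over-expression library.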
